A study of Mus musculus with 12 samples.

Results

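The comparison described here is the difference between the effects of FoxO deficiency in the 2 cell types, namely the change in myeloid progenitors minus the change in LSK cells. It used all 12 arrays of the series, in 4 groups of 3 taken from the array titles, and every probe set of the deposited value table. The 4 groups were FoxO-deficient myeloid progenitors, wild-type myeloid progenitors, FoxO-deficient LSK cells and wild-type LSK cells. LSK stands for lineage-negative, Sca-1-positive and Kit-positive marrow cells, among which the hematopoietic stem cells (HSCs) are found, and myeloid progenitors are their more restricted descendants. All mice carried FoxO1/O3/O4 LoxP/LoxP alleles, and the deficient mice were Mx-Cre+ while the wild-type mice were Mx-Cre-. Mx-Cre is a recombinase transgene under the interferon-inducible Mx promoter, so it is not restricted to blood cells. Only the deficient groups carried it, so an effect of the transgene cannot be told apart from an effect of FoxO loss. Mice were pooled before sorting and RNA was amplified and labelled in triplicate, per the labels' protocols. The 3 arrays of a group may therefore be technical replicates, so the p-values cover array-to-array spread, which may be technical only.

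FoxO1, FoxO3 and FoxO4 are forkhead transcription factors that growth factor and insulin signalling, through PI3K and Akt, keeps out of the nucleus. In blood stem cells they are known for holding cells in quiescence and for keeping reactive oxygen species (ROS) low. Immediate-early genes are switched on within minutes by growth factors, cytokines or stress, with no need for new protein, and encode short-lived transcription factors, feedback inhibitors and secreted signals. According to the labels, the study asked how losing the 3 factors affects ROS metabolism genes in both cell types. A direct test of the difference between the effects shows for which genes the answer depends on the cell type.

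Mean deposited intensities per array lay between 118.9 and 190.2 and medians between 8 and 13.5. Wild-type LSK array 2 stood apart, with Gapdh control probe sets at 3165.1 for the 3′ end and 9.2 for the 5′ end, and the 3′ over 5′ ratio on the other 11 arrays lay between 1.77 and 2.37. Counts of calls in the difference are therefore also given without that array. Intensities below are normalized intensities, and group values are antilogs of mean log2 values of 3 arrays. Markers of the populations were then read. Procr, a receptor of HSCs, averaged 5.77 in FoxO-deficient and 4.52 in wild-type myeloid progenitors, against 276 in FoxO-deficient and 228 in wild-type LSK cells. Mpo, the myeloperoxidase of granulocyte-monocyte progenitors, averaged 4712 in FoxO-deficient and 4289 in wild-type myeloid progenitors, against 2205 in FoxO-deficient and 2031 in wild-type LSK cells, and Kit was above background on all 12 arrays. No probe set is paired only with Ly6a, the gene of Sca-1, so neither sort marker separated the 2 populations here.

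Of the targeted genes, Foxo4 read 59.1, 59.3 and 61.3 in FoxO-deficient myeloid progenitors, 349.8, 309 and 332 in wild-type myeloid progenitors, 67.2, 93.8 and 100.2 in FoxO-deficient LSK cells and 347, 366 and 479 in wild-type LSK cells. Both deficient groups lay below both wild-type groups. The effects in the 2 cell types had a log2 difference of -0.26 ± 0.33 (SE) and a 95% interval of -1.0 to 0.47 (limma, adjusted p = 0.881). The difference was 1.04 ± 0.83 for Foxo1 and 0.15 ± 0.28 for Foxo3 (limma, adjusted p = 0.802 and 0.923). Foxo3 was not lower in either deficient group, at 2414 in FoxO-deficient and 1860 in wild-type myeloid progenitors, and 2828 in FoxO-deficient and 2421 in wild-type LSK cells. Which exons were removed was not stated in the labels, and probes for exons that remain check nothing.

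The effect of FoxO deficiency differed between the cell types for 60 of 18193 genes (0.33%), of which 32 were in the lists of immediate-early genes used here. These 32 were lower in FoxO-deficient than in wild-type myeloid progenitors. None was called in LSK cells, where 28 changed by less than 1 on the log2 scale. They were chosen by the difference itself, which favours a fall in myeloid progenitors and a rise in LSK cells. Outside those lists, the stress and autophagy adaptor gene Sqstm1, the heat shock gene Hspa1b and the lipopolysaccharide co-receptor gene Cd14 also fell in myeloid progenitors and were not called in LSK cells. The kinase gene Sik1 rose in LSK cells at its brightest probe set, while another probe set showed no called rise. At their brightest probe sets, the lamin gene Lmna and the cell death gene Pmaip1 read higher in LSK cells and lower in myeloid progenitors. With 12 arrays neither gene was called in either cell type alone. Without wild-type LSK array 2 the fall in myeloid progenitors was called for both.

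With limma, Benjamini-Hochberg adjustment over 45037 probe sets and a call at an adjusted p under 0.05, 121 probe sets (0.269%) were called in the difference. Of these, 103 (0.229%) were lower, meaning that the change was more negative in myeloid progenitors, and 18 (0.04%) were higher. At an unadjusted p under 0.05 there were 3914. Without wild-type LSK array 2 the count was 303 (0.673%), with 228 lower (0.506%) and 75 higher (0.167%). Of the 121 probe sets, 115 were called in both fits, and all 115 had the same sign in both. With each gene represented by its brightest probe set, 60 of 18193 genes (0.33%) were called, 52 (0.286%) lower and 8 (0.044%) higher, and without array 2 there were 132 (0.726%), 97 lower (0.533%) and 35 higher (0.192%). The effect within a cell type was called for 282 probe sets (0.626%) in myeloid progenitors and for 18 (0.04%) in LSK cells.

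**Figure D1:**
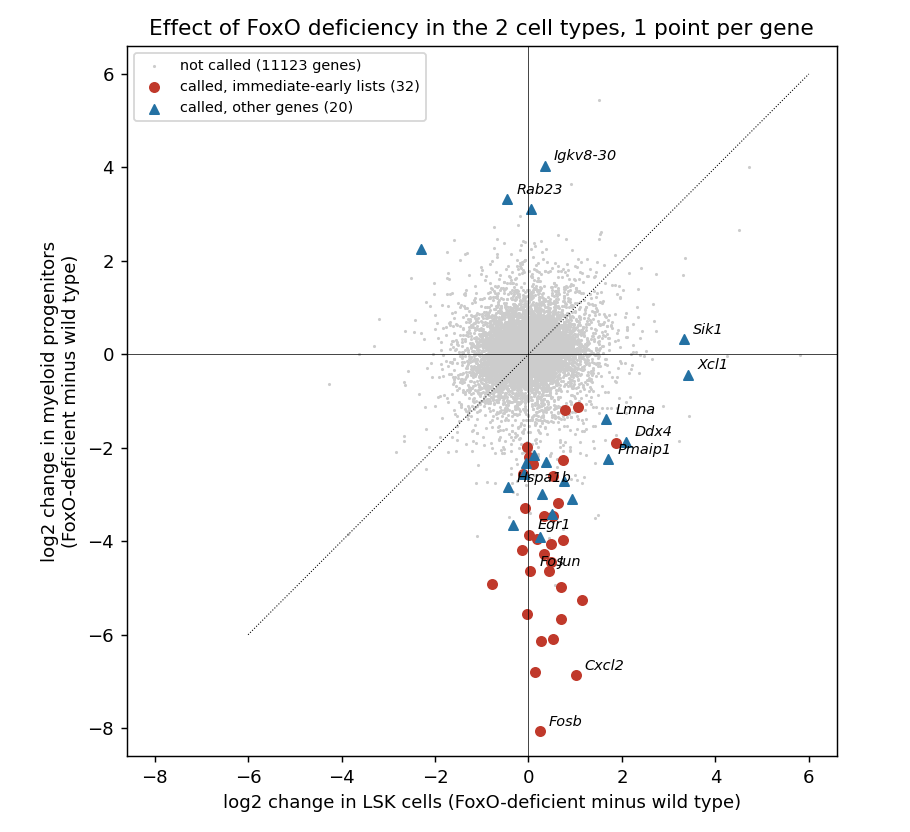
Each point is 1 of 11175 genes above background on all arrays of at least 1 group, with its log2 change in LSK cells on the horizontal axis and in myeloid progenitors on the vertical axis, both as FoxO-deficient minus wild type. Genes on the dotted line changed alike; the 32 called immediate-early genes (red) lie below it, most near 0 on the horizontal axis, and 20 other called genes (blue triangles) lie below, right of and above it.

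The called difference mostly came from the myeloid side. Among the 121 probe sets, the change was itself called in myeloid progenitors for 97, in LSK cells for 6, in both for 0 and in neither for 18. Of the 103 lower ones, 92 had the larger change in myeloid progenitors, 72 with the opposite sign in LSK cells and 20 with the same sign, and 11 had the larger change in LSK cells. The 18 higher ones were split evenly, with the larger change in myeloid progenitors for 9 and in LSK cells for 9. Across the 11175 genes above background, the 2 effects correlated at r = 0.0857, or 0.0739 without array 2. This value is across genes, which are not independent replicates, and the 2 effects share the fit but no arrays.

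The 5 lists of immediate-early genes held 91 measured genes. Of these, 32 (35.2%) were called lower in the difference and 0 higher, against 0.155%, in either direction, of the 18102 genes outside the lists. Their median log2 difference was -2.21, made of a median change of -1.74 in myeloid progenitors and 0.33 in LSK cells, against a median difference of 0.07 over all genes. All 32 had their 3 FoxO-deficient myeloid progenitor arrays below the other 9 arrays. Within a cell type, 30 of the 32 fell in myeloid progenitors, where 0.473% of all genes fell. In LSK cells 0 were called, where 0.055% of all genes were. The 32 were chosen by the change in myeloid progenitors minus that in LSK cells. That choice favours falls in the first and rises in the second, so their counts in each cell type are no separate evidence. In LSK cells 28 of the 32 changed by less than 1 on the log2 scale. The full range in LSK cells was -0.78 to 1.86, with 26 of the 32 above 0. At its upper end Cd83, a surface protein of activated immune cells, averaged 1021 in FoxO-deficient and 280.3 in wild-type LSK cells. In bulk samples, fewer cells of a type and less RNA per cell cannot be told apart.

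AP-1 is a dimer of Fos, Jun and Atf family proteins, and 5 of its 11 measured genes were called lower, with a median difference of -2.63. Fos, a subunit that pairs with Jun proteins, read 99.6, 116 and 153 in FoxO-deficient myeloid progenitors, 3308, 2712 and 3066 in wild-type myeloid progenitors, 4235, 4269 and 4370 in FoxO-deficient LSK cells and 3866, 4677 and 4001 in wild-type LSK cells. The FoxO-deficient myeloid progenitor arrays lay far below the other 9, and the log2 difference was -4.68 ± 0.32 (limma, adjusted p = 3.83e-04). Jun, the principal partner of Fos, read 68.7, 59.6 and 100.1 in FoxO-deficient myeloid progenitors, 1990, 1678 and 1900 in wild-type myeloid progenitors, 2447, 2574 and 2740 in FoxO-deficient LSK cells and 2267, 1427 and 2140 in wild-type LSK cells. Again the 3 deficient myeloid progenitor arrays stood alone, with a difference of -5.08 ± 0.38 (limma, adjusted p = 4.96e-04).

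Fosb, a Fos relative induced in bursts, read 1.09, 7.05 and 1.99 in FoxO-deficient myeloid progenitors, 683, 664 and 644 in wild-type myeloid progenitors, 1677, 1843 and 1892 in FoxO-deficient LSK cells and 1816, 1120 and 1743 in wild-type LSK cells. It was not above background in FoxO-deficient myeloid progenitors, so only a bound can be given, taken from the highest of 27 bacterial control probe sets on each array or the gene's own value where higher. The ratio of FoxO-deficient to wild type was at least 84.5-fold lower in myeloid progenitors than in LSK cells (limma, adjusted p = 0.00285). Atf3, a stress-induced repressor of the same family, averaged 3.62 in FoxO-deficient and 256 in wild-type myeloid progenitors, and 554 in FoxO-deficient and 463 in wild-type LSK cells, a ratio at least 33-fold lower in myeloid progenitors (limma, adjusted p = 0.00647). Jund, the Jun family member known for constitutive expression, had a difference of -2.45 ± 0.29 (limma, adjusted p = 0.00979). Junb averaged 8.26 in FoxO-deficient and 24.9 in wild-type myeloid progenitors, and 47.7 in FoxO-deficient and 23.3 in wild-type LSK cells, and its difference of -2.63 was not called (limma, adjusted p = 0.167).

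The Egr zinc finger factors and the Nr4a orphan nuclear receptors are immediate-early transcription factors, and 6 of 10 measured genes were called lower, with a median difference of -3.15. Egr1 read 225, 234 and 224 in FoxO-deficient myeloid progenitors, 3397, 3260 and 3274 in wild-type myeloid progenitors, 4379, 4467 and 4531 in FoxO-deficient LSK cells and 4609, 4362 and 4389 in wild-type LSK cells. Within each group its 3 arrays lay close together, and the deficient myeloid progenitors were the only low group, with a difference of -3.87 ± 0.25 (limma, adjusted p = 3.83e-04). Egr2 averaged 10.0 in FoxO-deficient and 182 in wild-type myeloid progenitors, and 146 in FoxO-deficient and 160.5 in wild-type LSK cells, with a difference of -4.05 ± 0.38 (limma, adjusted p = 0.00285). Of its FoxO-deficient myeloid progenitor arrays 1 was above background, so this size rests in part on readings at background. Egr3 averaged 3.06 in FoxO-deficient and 143 in wild-type myeloid progenitors, and 638 in FoxO-deficient and 653 in wild-type LSK cells, at least 15.1-fold lower in ratio in myeloid progenitors (limma, adjusted p = 0.0179).

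Nr4a1 read 2.94, 1.24 and 0.89 in FoxO-deficient myeloid progenitors, 66.4, 79.4 and 78.6 in wild-type myeloid progenitors, 866, 848 and 833 in FoxO-deficient LSK cells and 800.1, 264 and 681 in wild-type LSK cells. Array 2 was the lowest of the LSK arrays for this gene, and without it the difference was also called (limma, adjusted p = 0.00443). With 12 arrays, the ratio of FoxO-deficient to wild type was at least 13-fold lower in myeloid progenitors (limma, adjusted p = 0.00647), and the bound was 22.2 for Nr4a3 (limma, adjusted p = 0.00979). Nr4a2 was above background on all 12 arrays, averaging 55.2 in FoxO-deficient and 280.1 in wild-type myeloid progenitors, and 1476 in FoxO-deficient and 1381 in wild-type LSK cells, with a difference of -2.44 ± 0.30 (limma, adjusted p = 0.0101). For all 3 Nr4a genes the wild-type myeloid progenitors lay below both LSK groups, and the deficient myeloid progenitors lay lower still.

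**Figure D2:**
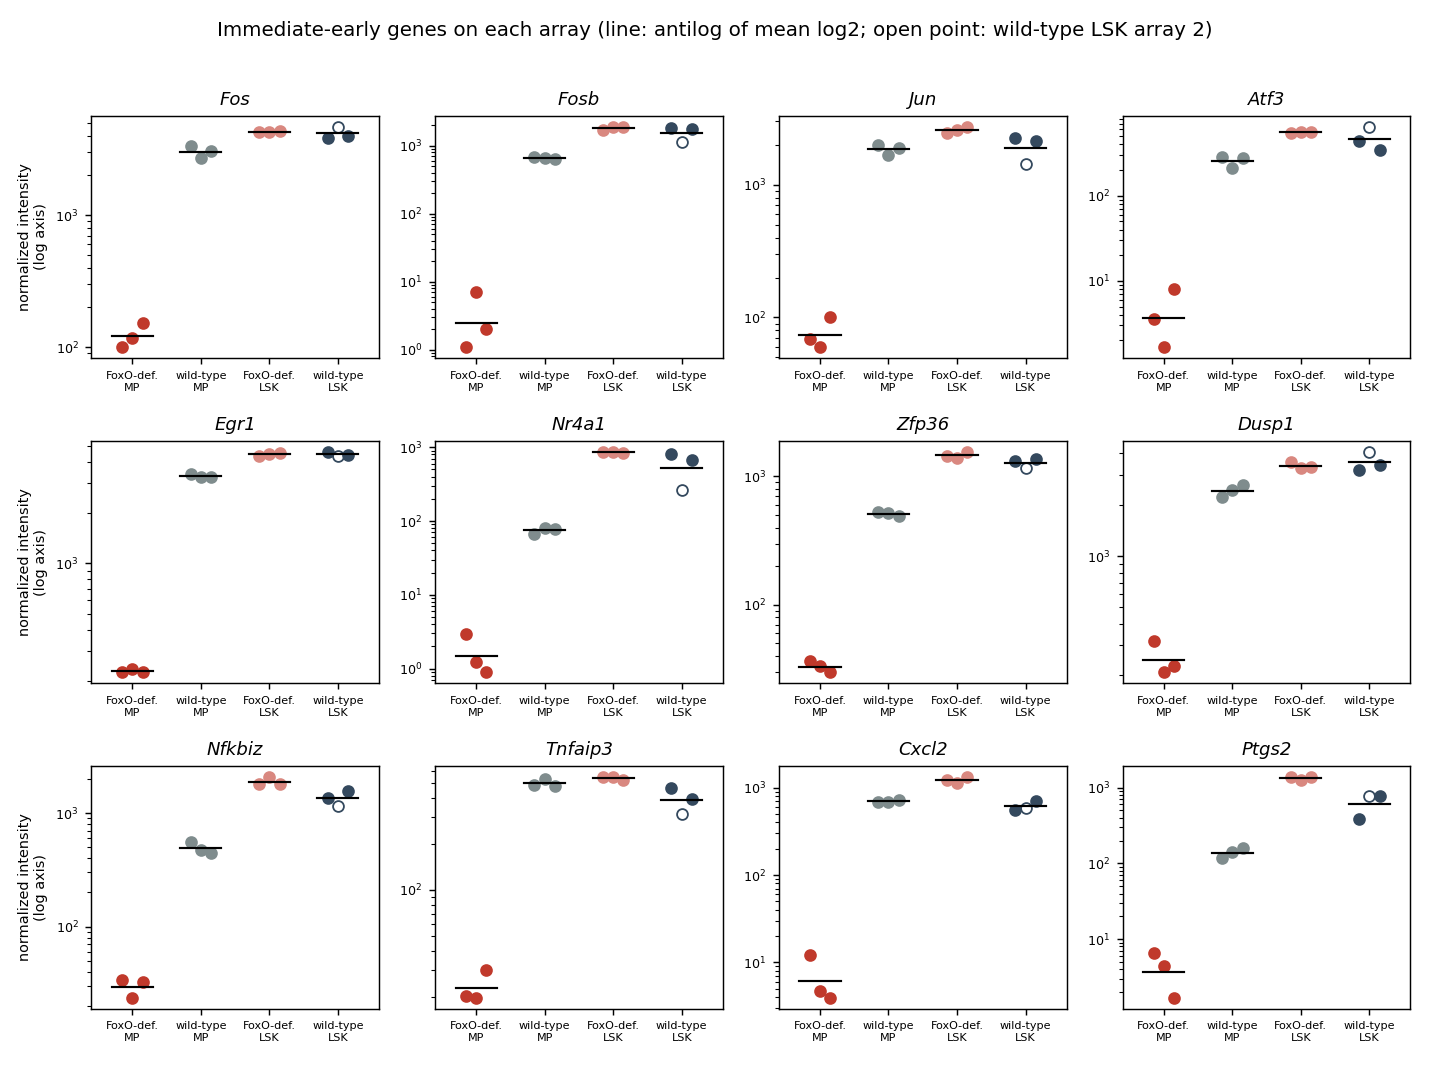
Normalized intensity (log axis) of 12 immediate-early genes on each of the 12 arrays, by group, with a line at the antilog of the mean log2 value and wild-type LSK array 2 as an open point. In every panel the 3 FoxO-deficient myeloid progenitor arrays (left) lie below all others, as for Egr1 at 224 to 234 against 3260 to 4609.

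Feedback genes of the response encode proteins that switch it off, such as phosphatases of MAP kinases and inhibitors of NF-kB, and 12 of 36 were called lower, with a median difference of -1.97. Zfp36, which binds AU-rich messenger RNAs and speeds their decay, read 36.2, 33.4 and 29.7 in FoxO-deficient myeloid progenitors, 524, 519.6 and 489 in wild-type myeloid progenitors, 1430, 1393 and 1555 in FoxO-deficient LSK cells and 1329, 1156 and 1355 in wild-type LSK cells. The deficient LSK arrays lay just above the wild-type LSK arrays, and the difference was -4.14 ± 0.28 (limma, adjusted p = 3.83e-04). Dusp1, a nuclear phosphatase of p38 and JNK, read 317, 208 and 227 in FoxO-deficient myeloid progenitors, 2223, 2450 and 2597 in wild-type myeloid progenitors, 3575, 3274 and 3350 in FoxO-deficient LSK cells and 3212, 4089 and 3433 in wild-type LSK cells, with a difference of -3.23 ± 0.32 (limma, adjusted p = 0.00459).

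Tnfaip3, the ubiquitin-editing inhibitor of NF-kB known as A20, read 20.2, 19.8 and 30.2 in FoxO-deficient myeloid progenitors, 485, 534 and 476 in wild-type myeloid progenitors, 546, 543 and 523 in FoxO-deficient LSK cells and 466, 315 and 393 in wild-type LSK cells. All 9 other arrays were at least 10 times as bright as any deficient myeloid progenitor array, and the difference was -4.91 ± 0.34 (limma, adjusted p = 3.83e-04). Nfkbia, the inhibitor that holds NF-kB in the cytoplasm, averaged at its brightest probe set 965 in FoxO-deficient and 3835 in wild-type myeloid progenitors, and 3390 in FoxO-deficient and 3442 in wild-type LSK cells, with a difference of -1.97 ± 0.30 (limma, adjusted p = 0.0321). Nfkbiz, a nuclear member of the same family, averaged 29.5 in FoxO-deficient and 491 in wild-type myeloid progenitors, and 1889 in FoxO-deficient and 1347 in wild-type LSK cells, with a difference of -4.55 ± 0.33 (limma, adjusted p = 3.83e-04). Further called genes were Socs3, an inhibitor of cytokine receptor signalling, Ier3 and Ier5, Btg2, an antiproliferative gene, Rgs1, a regulator of G protein signalling, and Errfi1, an inhibitor of the EGF receptor, with differences between -4.61 and -2.18. For Socs3 array 2 read above both other wild-type LSK arrays and for Ier3 below both. Without that array their differences were -4.77 ± 0.26 and -3.30 ± 0.20 (limma, adjusted p = 3.49e-04 and 4.60e-04). Socs3 was above background on 1 FoxO-deficient myeloid progenitor array, so its size rests in part on readings at background.

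Early chemokines and cytokines had 7 of 19 measured genes called lower, with a median difference of -2.68. Cxcl2, a neutrophil chemokine, read 12, 4.64 and 3.94 in FoxO-deficient myeloid progenitors, 684, 692 and 727 in wild-type myeloid progenitors, 1238, 1137 and 1329 in FoxO-deficient LSK cells and 556, 590.0 and 697 in wild-type LSK cells. Of the deficient myeloid progenitor arrays 1 was above background, so sizes for this gene rest in part on readings at background. The deficient LSK arrays lay above the wild-type LSK arrays without overlap. The difference was -7.87 ± 0.53, made of -6.86 ± 0.37 in myeloid progenitors and 1.01 ± 0.37 in LSK cells, and the LSK change was not called (limma, adjusted p = 3.83e-04 for the difference and 0.535 in LSK cells). Ccl3 and Ccl4, chemokines for monocytes and T cells, were at least 53.6-fold and 15.7-fold lower in ratio in myeloid progenitors (limma, adjusted p = 3.83e-04 and 0.0204). Ptgs2, the inducible cyclooxygenase of prostaglandin synthesis, averaged 3.65 in FoxO-deficient and 139 in wild-type myeloid progenitors, and 1344 in FoxO-deficient and 611 in wild-type LSK cells, a ratio at least 33-fold lower (limma, adjusted p = 0.00559).

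Promoter windows of 250 bases before the start site were read from RefSeq (GRCm38.p6) for 24 of the 32 called immediate-early genes. As examples, 4 picked by hand are shown, each with at least 1 of the motifs searched for. Other windows held such motifs too. Capitals mark motif matches, and each window is given 5′ to 3′ on the gene's strand. The windows are chr5:90903649-90903898 (plus strand) for Cxcl2, chr10:19015411-19015660 (minus) for Tnfaip3, chr7:28379229-28379478 (minus) for Zfp36 and chr17:26508473-26508722 (minus) for Dusp1.
Cxcl2: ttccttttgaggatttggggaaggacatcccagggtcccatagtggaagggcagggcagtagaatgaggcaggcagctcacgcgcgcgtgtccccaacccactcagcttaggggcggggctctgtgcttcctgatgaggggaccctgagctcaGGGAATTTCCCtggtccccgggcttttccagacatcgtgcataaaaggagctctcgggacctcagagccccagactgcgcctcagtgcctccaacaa
Tnfaip3: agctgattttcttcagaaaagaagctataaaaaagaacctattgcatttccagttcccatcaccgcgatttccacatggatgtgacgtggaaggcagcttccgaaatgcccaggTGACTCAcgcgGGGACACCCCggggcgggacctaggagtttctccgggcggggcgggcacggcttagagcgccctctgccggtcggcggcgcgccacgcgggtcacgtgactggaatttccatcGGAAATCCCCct
Zfp36: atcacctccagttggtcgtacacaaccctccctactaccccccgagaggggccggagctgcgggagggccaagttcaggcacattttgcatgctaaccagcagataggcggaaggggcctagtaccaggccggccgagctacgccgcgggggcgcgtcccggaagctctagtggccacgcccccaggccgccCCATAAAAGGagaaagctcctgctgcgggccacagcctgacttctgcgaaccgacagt
Dusp1: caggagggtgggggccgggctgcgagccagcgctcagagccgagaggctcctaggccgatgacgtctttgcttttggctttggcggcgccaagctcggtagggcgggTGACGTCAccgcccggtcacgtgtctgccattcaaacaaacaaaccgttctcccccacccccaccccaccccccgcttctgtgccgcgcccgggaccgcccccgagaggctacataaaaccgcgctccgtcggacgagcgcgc
In capitals, Cxcl2 holds overlapping kappa-B motifs, Tnfaip3 an AP-1 motif and 2 kappa-B motifs, Zfp36 a CArG box and Dusp1 a CRE. Searched on both strands, the kappa-B motif, the site bound by NF-kB, was in 8 of the 24 windows (33.3%) and in 3.75% of all 27025 windows in the table. The CRE (TGACGTCA) was in 2 (8.33%) against 1.62%, the AP-1 motif (TGANTCA) in 2 (8.33%) against 6.87%, and the CArG box, bound by serum response factor, in 1 (4.17%) against 1.4%. The FoxO motif (GTAAACA) was in 0 of the 24 against 3.09%. These letter matches are a description of short windows and show no binding. The lists were drawn up to hold inhibitors of NF-kB and early chemokines, and windows of uncalled immediate-early genes were not counted apart. The shares therefore say nothing about the difference between the FoxO effects.

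The last list, of Klf, Id and other early factors, had only 2 of 15 genes called lower, with a median difference of -1.20. Klf6, a zinc finger factor, averaged 229.8 in FoxO-deficient and 1390 in wild-type myeloid progenitors, and 2717 in FoxO-deficient and 1880 in wild-type LSK cells. Its difference was -3.13 ± 0.37 (limma, adjusted p = 0.00979). It was the only 1 of 57 measured FoxO targets to be called (1.75%, against 0.33% of all genes). Bhlhe40, a circadian and hypoxia-responsive repressor, averaged 14.4 in FoxO-deficient and 158 in wild-type myeloid progenitors, and 855 in FoxO-deficient and 679.5 in wild-type LSK cells, with a difference of -3.79 ± 0.46 (limma, adjusted p = 0.0101). Myc, the growth-promoting factor that belongs to the same list, had the opposite sign, averaging 328 in FoxO-deficient and 163 in wild-type myeloid progenitors, and 116 in FoxO-deficient and 158 in wild-type LSK cells. Its difference of 1.45 was not called with 12 arrays (limma, adjusted p = 0.145) and was called without array 2, at 1.53 (limma, adjusted p = 0.0429). Id2, an inhibitor of E proteins, had a difference of -0.38 (limma, adjusted p = 0.813).

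Outside the 5 lists, 20 of 18102 genes were called lower and 8 higher (0.155% together), and without array 2 the counts were 58 and 34. Of the 20 lower genes, 12 fell in myeloid progenitors, 2, Sik1 and Xcl1, were called in LSK cells, and 6 were called in neither. All 3 FoxO-deficient myeloid progenitor arrays of 13 genes lay below the other 9. The LSK change ran from -0.44 to 3.42.

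Sqstm1 encodes p62, the adaptor that carries ubiquitinated cargo to autophagosomes and activates the antioxidant factor Nrf2. It read 27.1, 38.4 and 32 in FoxO-deficient myeloid progenitors, between 377 and 454 in wild-type myeloid progenitors, 639, 621 and 624 in FoxO-deficient LSK cells and 864, 677 and 835 in wild-type LSK cells. The 3 deficient myeloid progenitor arrays lay below all others, and the 3 wild-type LSK arrays lay above the 3 deficient LSK arrays. The difference was -3.33 ± 0.31 (limma, adjusted p = 0.00285), and its second probe set differed by -1.62 without being called (adjusted p = 0.232). It was the only 1 of 31 measured autophagy and lysosome genes to be called (3.23%, against 0.33% of all genes), and 1 call is no result about the list.

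Hspa1b, the inducible Hsp70 chaperone, read 338, 328 and 348 in FoxO-deficient myeloid progenitors, 2326, 2409 and 2576 in wild-type myeloid progenitors, 1503, 1285 and 1334 in FoxO-deficient LSK cells and 1668, 2284 and 1695 in wild-type LSK cells. The wild-type myeloid progenitors were the brightest group and the deficient ones the dimmest, with a difference of -2.41 ± 0.29 (limma, adjusted p = 0.0101). It was the only 1 of 13 measured heat shock genes to be called (7.69%, against 0.33% of all genes), and the list's median difference was -0.51. Of the 13 differences 12 were below 0, against 8348 of 18193 over all genes. Without array 2, 2 of the 13 were called lower, in a fit where 0.533% of all genes were. Hspa8, the constitutive member of the Hsp70 family, averaged 3355 in FoxO-deficient and 3444 in wild-type myeloid progenitors, and 3212 in FoxO-deficient and 3203 in wild-type LSK cells, with a difference of -0.04 (limma, adjusted p = 0.981).

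Cd14, the co-receptor that passes lipopolysaccharide to Toll-like receptor 4, read 11.5, 13.6 and 13.1 in FoxO-deficient myeloid progenitors, 113, 79.2 and 112 in wild-type myeloid progenitors, 75.7, 81.5 and 71.5 in FoxO-deficient LSK cells and 57.4, 85.6 and 50.1 in wild-type LSK cells. Its difference was -3.26 ± 0.37 (limma, adjusted p = 0.00828). It was the only 1 of 20 measured monocyte and macrophage genes to be called (5%, against 0.33% of all genes), and 1 call is no result about the list. The summed level of those 20 genes lay between 2685 and 2906 in FoxO-deficient and between 2426 and 2797 in wild-type myeloid progenitors, and between 1074 and 1150 in FoxO-deficient and between 718.5 and 1906 in wild-type LSK cells. Of the 20, 14 to 16 were above background on FoxO-deficient and 12 to 15 on wild-type myeloid progenitor arrays, and 14 to 16 on FoxO-deficient and 11 to 13 on wild-type LSK arrays. Among defining markers, Itgam was above it on no myeloid progenitor array, and on 2 FoxO-deficient and 1 wild-type LSK arrays. Adgre1 was above it on 2 FoxO-deficient and 0 wild-type arrays in each cell type, and Cd68 on all 12 arrays. The part of such cells in the result was not tested. Phlda1, a gene induced by growth factors, was at least 10.4-fold lower in ratio in myeloid progenitors (limma, adjusted p = 0.0129). Gem, a small GTPase of the cytoskeleton, had a difference of -4.04 ± 0.67, Rasgef1b, a Ras-family exchange factor, of -3.47 ± 0.43, and Trim72, of membrane repair in muscle, of -2.68 ± 0.34 (limma, adjusted p = 0.0474, 0.0109 and 0.0129). Trim72 was above background on 1 FoxO-deficient myeloid progenitor array, so its size rests in part on readings at background. Rrad, a GTPase related to Gem, averaged 1.26 in FoxO-deficient and 13.6 in wild-type myeloid progenitors, and 18.2 in FoxO-deficient and 12.9 in wild-type LSK cells, a ratio at least 2.07-fold lower (limma, adjusted p = 0.0183).

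Other genes were called lower with effects of opposite sign in the 2 cell types at their brightest probe set. Lmna, which encodes the A-type lamins of the nuclear envelope, read 192, 146 and 224 in FoxO-deficient myeloid progenitors, 593, 429.7 and 442 in wild-type myeloid progenitors, 1089, 1064 and 1096 in FoxO-deficient LSK cells and 443, 278 and 320.5 in wild-type LSK cells. The deficient arrays lay below the wild-type arrays in myeloid progenitors and above them in LSK cells, without overlap in either. With 12 arrays neither effect was called by itself, at -1.39 ± 0.26 and 1.67 ± 0.26 (limma, adjusted p = 0.0543 and 0.0923), while the difference of -3.06 ± 0.37 was (limma, adjusted p = 0.0101). Without array 2 the fall in myeloid progenitors was called and the rise in LSK cells was not (limma, adjusted p = 0.0177 and 0.0977). The other 4 probe sets of Lmna disagreed. One had a called difference of -3.41 (limma, adjusted p = 0.0226). Another, above background on all 12 arrays, had an uncalled difference of -1.81 (limma, adjusted p = 0.15), with a called fall of 1.79 on the log2 scale in myeloid progenitors and a change of 0.02 in LSK cells. The 2 dimmest had 0.12 and -1.30.

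Pmaip1 encodes Noxa, a p53-induced BH3-only protein that promotes cell death. It read 68.2, 77.5 and 74.1 in FoxO-deficient myeloid progenitors, 344, 354 and 345 in wild-type myeloid progenitors, 188, 186 and 238 in FoxO-deficient LSK cells and 119, 27.2 and 73.9 in wild-type LSK cells. The deficient arrays lay below the wild-type arrays in myeloid progenitors and above them in LSK cells, and array 2 was the lowest LSK array. With 12 arrays neither effect was called by itself (limma, adjusted p = 0.0623 and 0.343). Without array 2 the fall in myeloid progenitors was called and the rise in LSK cells was not (limma, adjusted p = 0.00104 and 0.158). The difference was -3.96 ± 0.62 with 12 arrays and -3.36 ± 0.30 without array 2 (limma, adjusted p = 0.0394 and 0.00217), but it stayed called in only 2 of the 12 fits that each left out 1 array. Ddx4, a helicase known from germ cells, averaged 5.32 in FoxO-deficient and 19.4 in wild-type myeloid progenitors, and 191 in FoxO-deficient and 45 in wild-type LSK cells. Its difference was -3.96 ± 0.50 (limma, adjusted p = 0.0126), with no call in either cell type alone (limma, adjusted p = 0.0537 and 0.11). Without array 2 the fall in myeloid progenitors was called and the rise in LSK cells was not (limma, adjusted p = 0.033 and 0.144). Of its FoxO-deficient myeloid progenitor arrays 1 was above background, so these sizes rest in part on readings at background.

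Sik1, a salt-inducible kinase that restrains CREB-dependent transcription, read 30.8, 24.5 and 28 in FoxO-deficient myeloid progenitors, 24.1, 17.8 and 25.3 in wild-type myeloid progenitors, 289, 375 and 366 in FoxO-deficient LSK cells and 43.2, 20.9 and 44.1 in wild-type LSK cells. Here the deficient LSK arrays stood alone, all well above the other 9, and the myeloid groups overlapped. The change was 3.32 ± 0.32 in LSK cells (limma, adjusted p = 0.0124) and 0.32 ± 0.32 in myeloid progenitors (limma, adjusted p = 0.86), with a difference of -3.0 ± 0.45 (limma, adjusted p = 0.0306). A second probe set averaged 11.2 and 30.7 in myeloid progenitors and 85.1 and 79.8 in LSK cells (FoxO-deficient and wild type in each). It changed by -1.455 in myeloid progenitors and 0.09 in LSK cells (limma, adjusted p = 0.0562 and 0.935). The 2 probe sets thus disagreed on both changes. At the brightest probe set, the difference was called in only 3 of the 12 fits that each left out 1 array.

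Xcl1, a chemokine of activated T and NK cells, was above background only in FoxO-deficient LSK cells, where it read 19.2, 13.2 and 11.1. The difference was called (limma, adjusted p = 0.0129), and no size is given because both myeloid groups were at background. It was the only 1 of 24 measured T and NK cell genes to be called (4.17%, against 0.33% of all genes), and 1 call is no result about the list. The summed level of those genes lay between 2480 and 2802 in FoxO-deficient and between 1853 and 1939 in wild-type myeloid progenitors, and between 1222 and 1464 in FoxO-deficient and between 742.4 and 928.9 in wild-type LSK cells. Of the 24, 6 to 9 were above background on FoxO-deficient and 3 to 9 on wild-type myeloid progenitor arrays, and 12 to 17 on FoxO-deficient and 9 to 10 on wild-type LSK arrays. Ncr1, a defining NK marker, was above it on 0 arrays. Of the CD3 chains of the T cell receptor complex, Cd3d was above it on 1 wild-type LSK array, Cd3e on 1 array each of wild-type myeloid progenitors, FoxO-deficient LSK and wild-type LSK cells, and Cd3g on 1 FoxO-deficient and 2 wild-type LSK arrays. The part of such cells in the result was not tested.

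Of the 8 genes called higher, 4 were above background on all arrays of at least 1 group. Igkv8-30, an immunoglobulin light chain variable segment, read 35, 62.5 and 45.1 in FoxO-deficient myeloid progenitors, 2.63, 3.52 and 2.42 in wild-type myeloid progenitors, 1144, 1053 and 1144 in FoxO-deficient LSK cells and 768, 1257 and 695 in wild-type LSK cells. It was not above background in wild-type myeloid progenitors, and the LSK arrays were all bright. The ratio of FoxO-deficient to wild type was at least 3.62-fold higher in myeloid progenitors than in LSK cells (limma, adjusted p = 0.00979), a call that was lost with offsets of 16 and 32 (limma, adjusted p up to 0.221). Jchain, which links immunoglobulin polymers, read 44.6, 40.3 and 40.7 in FoxO-deficient myeloid progenitors and 6.64, 0.708 and 7.89 in wild-type myeloid progenitors, and 1230, 1123 and 1251 in FoxO-deficient LSK cells and 604, 778 and 557 in wild-type LSK cells. The 18 measured mature B and plasma cell genes summed to between 707.7 and 821.9 in FoxO-deficient and between 696.8 and 823.2 in wild-type myeloid progenitors, and to between 3445 and 3590 in FoxO-deficient and between 2311 and 4036 in wild-type LSK cells. Of the 18, 10 to 11 were above background on FoxO-deficient and 8 to 11 on wild-type myeloid progenitor arrays, and 12 to 15 on both FoxO-deficient and wild-type LSK arrays. Ms4a1, which encodes CD20, was above it on 1 FoxO-deficient LSK array. Cd79a, another B cell marker, was above it on 1 FoxO-deficient and 0 wild-type arrays in each cell type. It averaged 9.28 in FoxO-deficient and 2.77 in wild-type myeloid progenitors, and 2.76 in FoxO-deficient and 4.87 in wild-type LSK cells. Ighm, the heavy chain of immunoglobulin M, was above it on all 12 arrays and averaged 57.7 in FoxO-deficient and 40.7 in wild-type myeloid progenitors, and 458 in FoxO-deficient and 69.2 in wild-type LSK cells. Its difference was called without array 2, at -3.18 (limma, adjusted p = 0.0062, against 0.533 with 12 arrays), and the part of B lineage cells in these results was not tested.

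Rab23, a small GTPase that restrains Hedgehog signalling, read 15.8, 23.9 and 17.7 in FoxO-deficient myeloid progenitors, 2.3, 1.69 and 1.72 in wild-type myeloid progenitors, 12.6, 12.9 and 12.6 in FoxO-deficient LSK cells and 20.1, 11.8 and 21.9 in wild-type LSK cells. The wild-type myeloid progenitors were the only group not above background, and the ratio was at least 2.56-fold higher in myeloid progenitors (limma, adjusted p = 0.00647), although 2 dimmer probe sets differed by 1.77 and -0.92 without being called. For Tpd52l1, of the tumour protein D52 family, the bound was 1.27-fold, and for the gene 4933439C10Rik it was 10.6-fold (limma, adjusted p = 0.0436 and 0.0416). Both were called in few of the 12 fits that each left out 1 array, namely 2 and 1. Dimmer probe sets of 4933439C10Rik differed by 1.64 and 1.32 without being called (limma, adjusted p = 0.731 and 0.801). At its brightest, FoxO-deficient LSK cells were above background on 1 array, so its bound rests in part on readings at background.

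**Figure D3:**
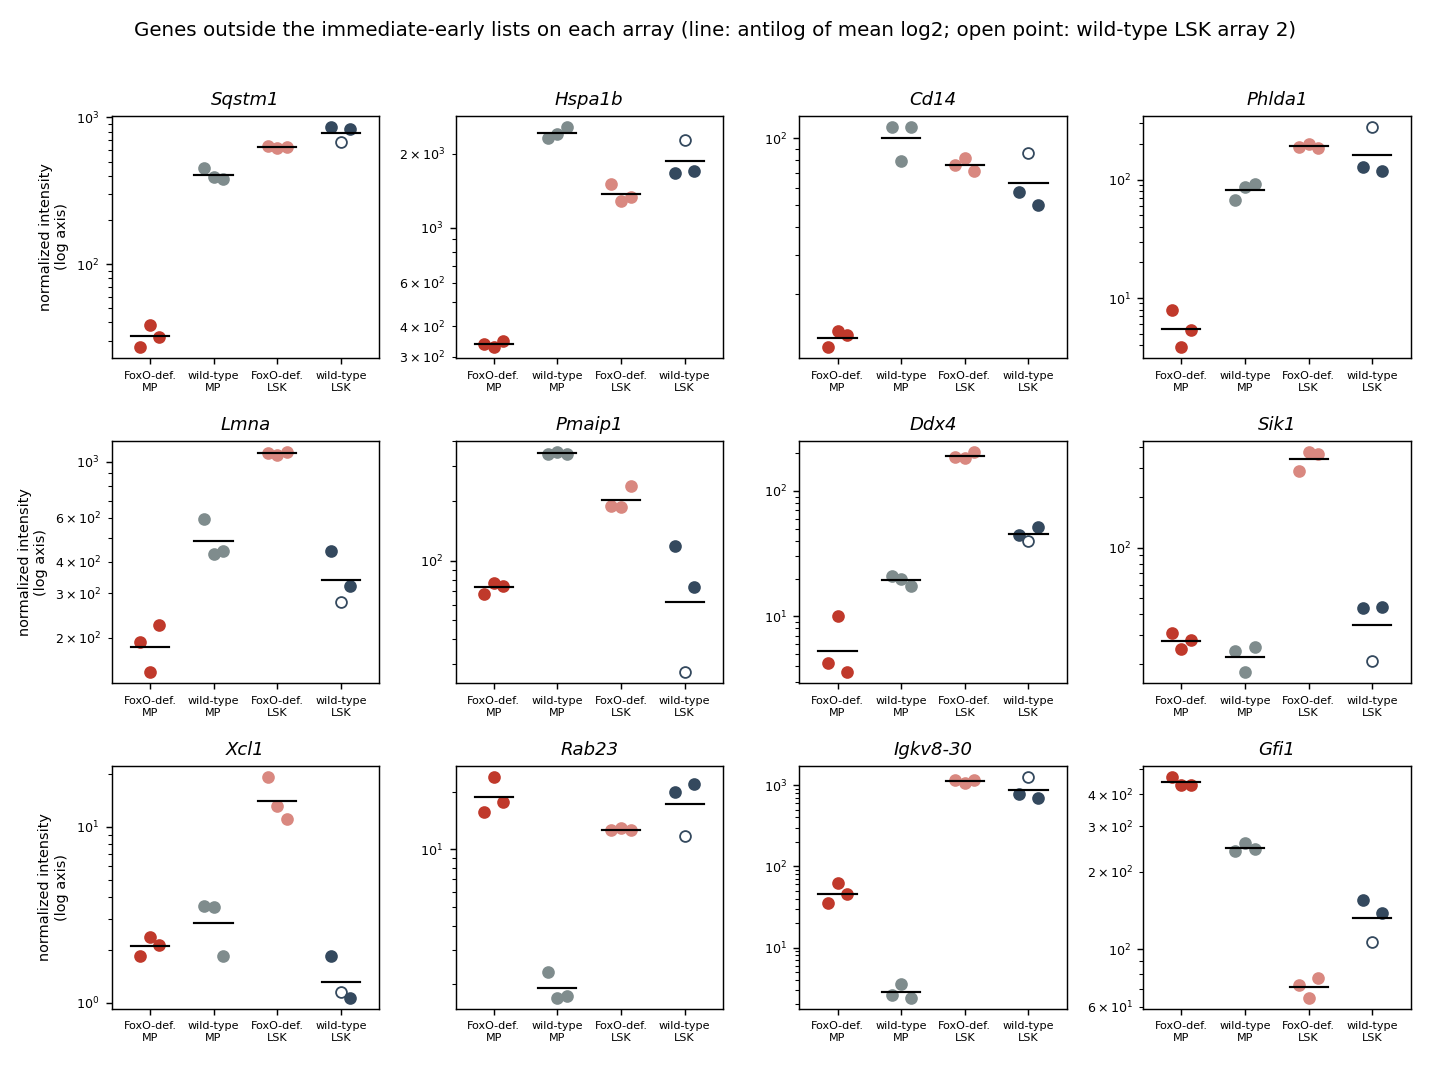
Normalized intensity (log axis) of 12 genes outside the immediate-early lists on each array, by group, drawn as in the plot of immediate-early genes. Sqstm1, Hspa1b, Cd14 and Phlda1 are low only in FoxO-deficient myeloid progenitors, Sik1 and Xcl1 are high only in FoxO-deficient LSK cells, Lmna, Pmaip1 and Ddx4 read lower in FoxO-deficient than in wild-type myeloid progenitors and higher in FoxO-deficient than in wild-type LSK cells, and Rab23 is low only in wild-type myeloid progenitors.

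Genes of ROS metabolism are the study's question. Of 75 measured antioxidant, glutathione and ROS-producing genes, 60 were above background on all arrays of at least 1 group, 0 were called in the difference with 12 arrays or without array 2 (limma), and 7 had an unadjusted p under 0.05. With 0.33% of all genes called, a count of 0 in 75 is near the background and is no result about these genes. Among the 60 above background, differences ran from -2.40 to 1.33 with a median of -0.03. The 95% interval reached 0.837 to either side at the median gene, with a smallest reach of 0.571 and a largest of 3.41. These intervals are not adjusted for the number of probe sets, and a call was. With 3 arrays a group, differences somewhat beyond those limits could therefore also go uncalled.

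Sod2, the mitochondrial superoxide dismutase and a known FoxO3 target in other cells, averaged 916 in FoxO-deficient and 881 in wild-type myeloid progenitors, and 785 in FoxO-deficient and 649 in wild-type LSK cells. Its difference was -0.22 ± 0.32 with an interval of -0.93 to 0.49 (limma, adjusted p = 0.9). Cat, the catalase that breaks down hydrogen peroxide, averaged 755 in FoxO-deficient and 837 in wild-type myeloid progenitors, and 806 in FoxO-deficient and 1013 in wild-type LSK cells, with an interval of -0.66 to 1.02 (limma, adjusted p = 0.934). Gpx1, the main cytosolic glutathione peroxidase, had a difference of 0.02 ± 0.30 and an interval of -0.65 to 0.70, and Txnip, the inhibitor of thioredoxin, of -0.04 ± 0.62 and -1.43 to 1.35 (limma, adjusted p = 0.991 and 0.992). Sod1 averaged 6004 in FoxO-deficient and 5920 in wild-type myeloid progenitors, and 5637 in FoxO-deficient and 3985 in wild-type LSK cells, with array 2 at 2059 against 5463 and 5627 on the other wild-type LSK arrays, and its interval was -1.59 to 0.63 (limma, adjusted p = 0.853).

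The ROS genes of lowest p had larger differences, none of them called. Srxn1, the sulfiredoxin that repairs peroxiredoxins, averaged 385 in FoxO-deficient and 210.2 in wild-type LSK cells, with a difference of -1.13 ± 0.37 (limma, adjusted p = 0.383). Gstm1, a glutathione transferase, had 0.88 ± 0.32, and Pgd, an NADPH-producing enzyme of the pentose phosphate pathway, had 0.74 ± 0.31 (limma, adjusted p = 0.446 and 0.537). Epx, the eosinophil peroxidase, had -2.05 ± 0.88 (limma, adjusted p = 0.546). Sod3, the extracellular superoxide dismutase, and Nox4, an NADPH oxidase, were not above background on all 3 arrays of any group, so no size is given for them (limma, adjusted p = 0.242 and 0.525).

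Among the 57 measured FoxO targets, the median difference was -0.05, with 1 gene called lower and 0 higher (1.75%, against 0.33% of all genes). Without array 2, 4 of the 57 were called lower, in a fit where 0.533% of all genes were. The added genes were Cdkn1a, the p21 inhibitor of cyclin-dependent kinases, Bcl2l11, the gene of the pro-apoptotic protein Bim, and Ddit4, an inhibitor of mTOR complex 1. Ddit4 averaged 379.5 in FoxO-deficient and 1580 in wild-type myeloid progenitors, and 2878 in FoxO-deficient and 1731 in wild-type LSK cells, with a difference of -2.79 with 12 arrays and -2.15 without array 2 (limma, adjusted p = 0.157 and 0.00635). Bcl2l11 averaged 322 in FoxO-deficient and 280.0 in wild-type myeloid progenitors, and 1068 in FoxO-deficient and 227 in wild-type LSK cells, so its difference lay on the LSK side, at -2.04 and -1.46 (limma, adjusted p = 0.284 and 0.0129). Of 20 measured p53 targets, Btg2 and Pmaip1 were called lower (10%, against 0.33% of all genes), both described above, and the list's median was -0.57. Btg2 is also in the immediate-early lists, and Pmaip1 stayed called in only 2 of the 12 fits that each left out 1 array. These calls are no result about the list.

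In cell identity and cell cycle lists, where the 0.33% of all genes would give close to 0 calls, counts of 0 were found for HSC genes (34 measured), erythroid genes (34), genes of late neutrophil granules (17), lymphoid progenitor genes (25), genes of granulocyte-monocyte progenitors (21), megakaryocyte genes (19), genes of eosinophils, basophils and mast cells (20), DNA replication and S phase genes (30) and G2 and mitosis genes (30). Without array 2, where 0.726% of all genes were called, calls were added for Tgm2 (lower) and Mycn (higher) of the HSC genes. Gfi1 (higher) of the granulocyte-monocyte progenitor genes, Mcpt8 and Ms4a2 (lower) of the basophil and mast cell genes and Pf4 (lower) of the megakaryocyte genes were added too. HSC genes had a median change of 0.03 in myeloid progenitors and -0.64 in LSK cells, and a median difference of 0.41. The eosinophil, basophil and mast cell genes had a median change of 0.53 in myeloid progenitors and 0.95 in LSK cells, and a median difference of -1.07. Erythroid genes had median changes of -0.67 in myeloid progenitors and -0.54 in LSK cells.

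The members of lowest p in these lists were not called with 12 arrays. Meis1, a homeobox factor of HSCs, averaged 74 in FoxO-deficient and 46.9 in wild-type myeloid progenitors, and 128 in FoxO-deficient and 202 in wild-type LSK cells, with a difference of 1.32 ± 0.32 (limma, adjusted p = 0.205). Differences were 0.70 for Irf8, which guides monocyte fate, -1.59 for Fcnb and 1.06 for Mmp8, both of neutrophil granules, and -1.17 for Plek of platelets. Erythroid members had -1.54 for the water channel gene Aqp1 and -0.85 for Alad of heme synthesis. Cell cycle members were Ccne1 (-0.63) and Ccnd3 (0.58) of the G1 cyclins, Fen1 (0.40) of DNA replication, and Cenpa (-0.66) and Cdc25c (-0.53) of mitosis. Sdc1, of plasma cells, had -1.87, and the stromal and endothelial genes Col1a2 and Flt1 had 2.06 and 2.20. For the lymphoid genes Ebf1, Igll1 and Iglv1 and the mast cell chymase gene Cma1, 1 group that enlarges the difference was not above background, and no size is given. Adjusted p over the members just named lay between 0.0742 and 0.778 (limma). Glycolysis and pentose phosphate, oxidative phosphorylation, cholesterol synthesis and the unfolded protein response also had 0 calls, with median differences between -0.08 and 0.17.

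**Figure D4:**
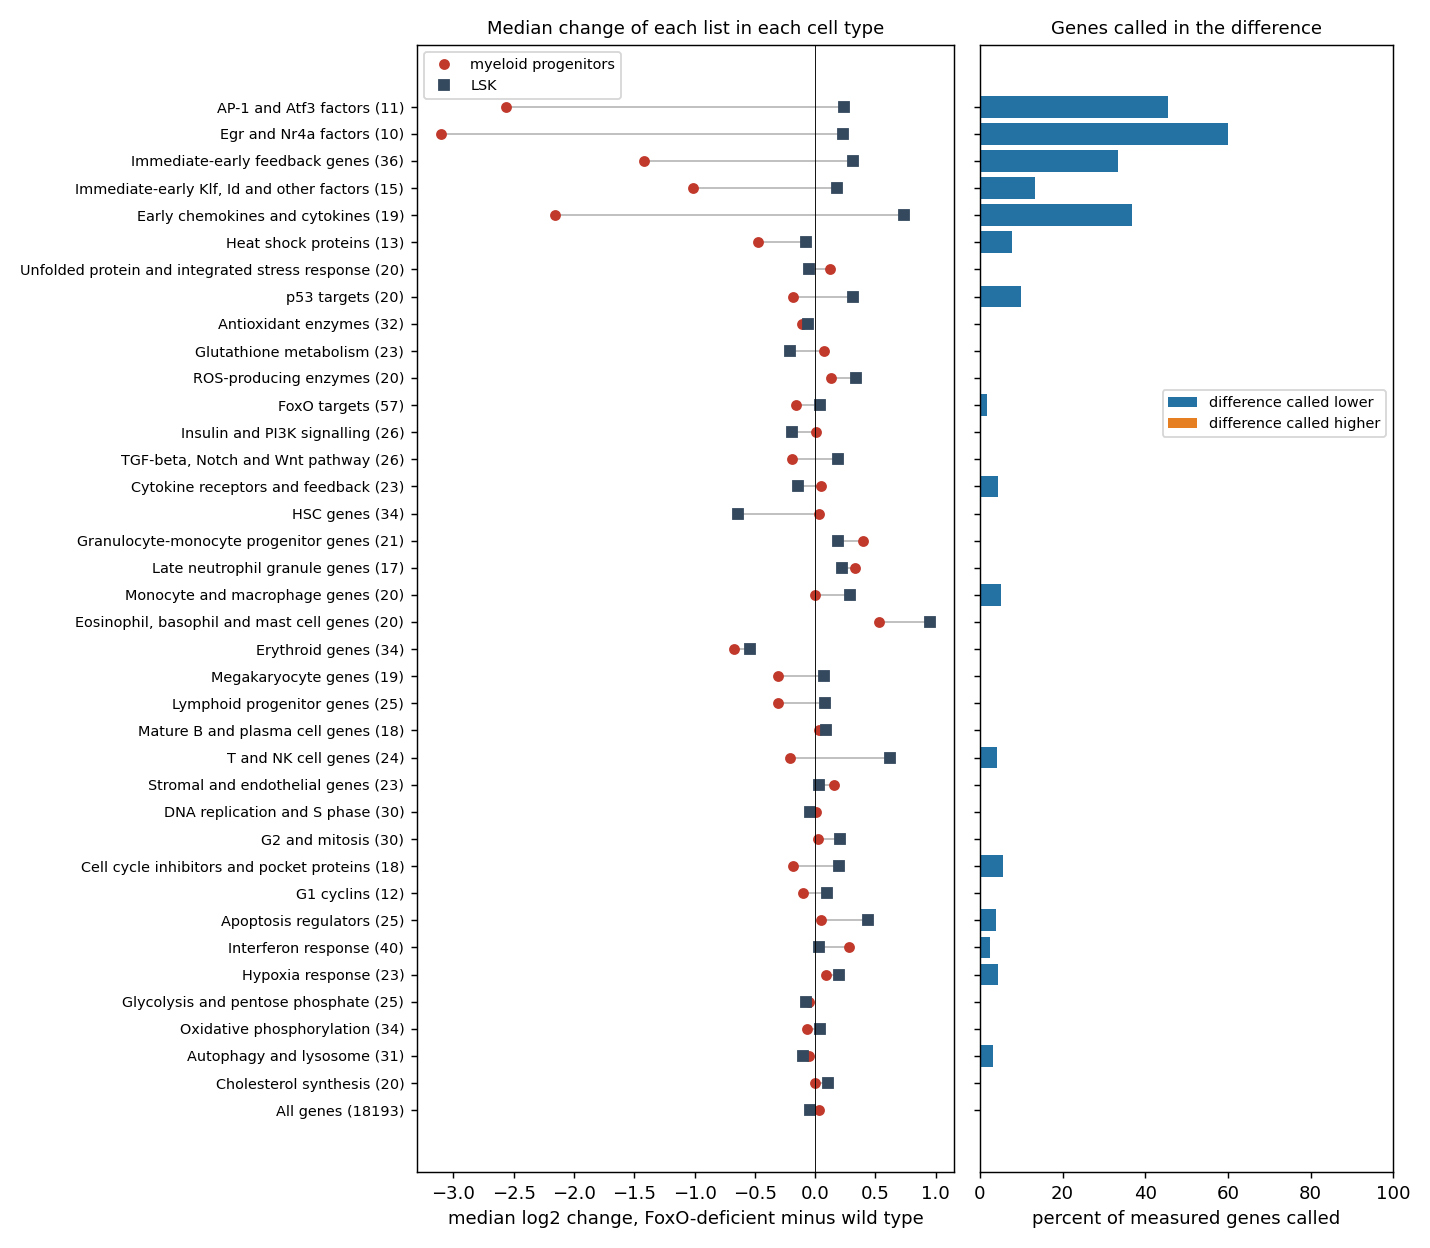
Left, the median log2 change (FoxO-deficient minus wild type) of each gene list in myeloid progenitors (circles) and LSK cells (squares), with the number of measured genes in brackets; right, the percent of those genes called in the difference. The 5 immediate-early lists at the top have the widest gaps and 13.3% to 60% of genes called lower, no list has a gene called higher, and all genes together are at 0.33%.

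Leaving out wild-type LSK array 2 raised the number of calls. The 97 lower and 35 higher genes then included 39 lower and 1 higher, Myc, of the 91 immediate-early genes. Ier2, an immediate-early gene of the feedback list, had a difference of -3.02 with 12 arrays and -2.42 without array 2 (limma, adjusted p = 0.119 and 0.00463). Dusp5, a nuclear phosphatase of ERK, read 61.4, 83.5 and 73.7 in FoxO-deficient myeloid progenitors, 802, 741 and 792 in wild-type myeloid progenitors, 3439, 3428 and 4160 in FoxO-deficient LSK cells and 3160, 248 and 2847 in wild-type LSK cells. Array 2 was far below both other wild-type LSK arrays, and without it the difference was -3.70 ± 0.24 (limma, adjusted p = 6.07e-04, against 0.167 with 12 arrays). Thbs1, an adhesive glycoprotein, had a difference of -4.10 ± 0.52 without array 2 (limma, adjusted p = 0.0135, against 0.0734 with 12 arrays).

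Gfi1, a repressor that guides granulocyte fate and restrains HSC cycling, read 466, 432 and 434 in FoxO-deficient myeloid progenitors, 240.4, 259 and 244 in wild-type myeloid progenitors, 72.6, 65.1 and 77.5 in FoxO-deficient LSK cells and 156, 107 and 138 in wild-type LSK cells. The deficient arrays were above the wild-type arrays in myeloid progenitors and below them in LSK cells, without overlap in either. The difference was 1.73 ± 0.30 with 12 arrays (limma, adjusted p = 0.0603) and 1.87 ± 0.20 without array 2 (limma, adjusted p = 0.00635). Mycn, a Myc relative of HSCs, had the same pattern, at 136 in FoxO-deficient and 66.2 in wild-type myeloid progenitors, and 339.8 in FoxO-deficient and 512 in wild-type LSK cells, with a difference of 1.94 ± 0.23 without array 2 (limma, adjusted p = 0.00988, against 0.212 with 12 arrays). Mcpt8, a basophil protease, averaged 254 in FoxO-deficient and 146 in wild-type myeloid progenitors, and 149 in FoxO-deficient and 29.3 in wild-type LSK cells, with a difference of -1.80 ± 0.21 without array 2 (limma, adjusted p = 0.00961, against 0.177). Pf4, a platelet chemokine, averaged 205 in FoxO-deficient and 301 in wild-type myeloid progenitors, and 265 in FoxO-deficient and 111 in wild-type LSK cells, with a difference of -2.19 ± 0.22 without array 2 (limma, adjusted p = 0.00463, against 0.209).

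Igk-V21, another immunoglobulin light chain segment, was at background in both myeloid groups and read 427, 457 and 403 in FoxO-deficient LSK cells and 13.1, 1.32 and 26 in wild-type LSK cells. Its difference was called without array 2 (limma, adjusted p = 0.00121, against 0.121 with 12 arrays), with no size given since both myeloid groups were at background. Trim30d, of an interferon-regulated Trim family, read 90.7, 83.6 and 82 in FoxO-deficient myeloid progenitors and 2.85, 2.96 and 0.882 in wild-type myeloid progenitors, and 213, 233 and 251 in FoxO-deficient LSK cells and 108, 40.1 and 123 in wild-type LSK cells, and was called without array 2 (limma, adjusted p = 0.0237, against 0.0829). With wild-type myeloid progenitors not above background, its ratio was at least 2.98-fold higher in myeloid progenitors with 12 arrays. Irgm2, an interferon-induced GTPase, averaged 73.7 in FoxO-deficient and 14.1 in wild-type myeloid progenitors, and 48.5 in FoxO-deficient and 44.9 in wild-type LSK cells, with a difference of 2.65 ± 0.45 without array 2 (limma, adjusted p = 0.0488, against 0.198). Parvb, Hopx and Sh2d4a (lower) and Zfp760, Tgds, Klhl42 and Tnfsf14 (higher) were the other genes of largest difference called only in that fit. For Klhl42 array 2 read 1.16, against 208 and 176 on the other wild-type LSK arrays, and its difference was -0.22 with array 2 and 2.24 ± 0.29 without it (limma, adjusted p = 0.989 and 0.014).

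**Figure D5:**
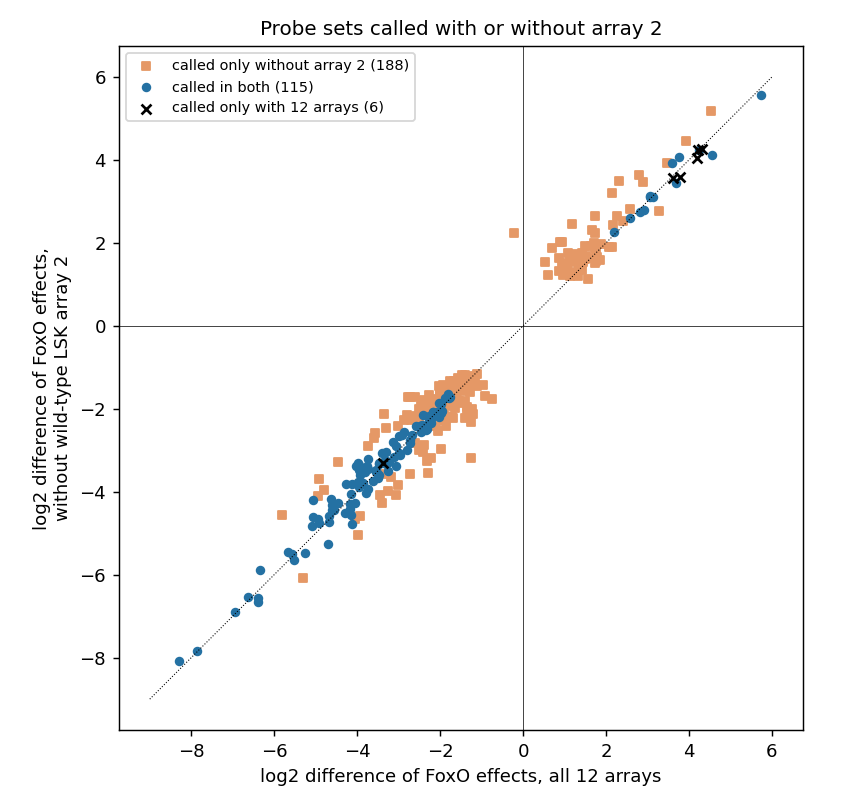
Log2 difference of the FoxO effects for each probe set called in at least 1 fit, with all 12 arrays (horizontal axis) and without wild-type LSK array 2 (vertical axis). The 115 probe sets called in both fits (circles) and the 6 called only with 12 arrays (crosses) lie near the dotted line of equality, and of the 188 called only without array 2 (squares) 1, of Klhl42, changes sign.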

How the data were processed

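Gene expression was measured on 12 Affymetrix mouse arrays, 3 for each of 4 groups taken from the array titles, with RNA amplified by the NuGEN Ovation system, per the labels' protocols. The authors deposited 1 linear intensity per probe set and array. Software for summarising probes was not given in the sources used here. Of 45101 probe sets, 64 controls were left out of the tests. From the intensities, log2(intensity + 0.6) was computed and the arrays were quantile normalized. Printed intensities are antilogs of these values, and the offset leaves changes of dim probe sets uncertain. At most 1.55% of values were equal between any pair of arrays.

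The platform annotation pairs 34945 probe sets with 1 gene symbol, 932 with several and 9160 with none. Of the first, 34741 symbols were updated through RefSeq (GRCm38.p6). A gene is represented by its probe set with the highest mean, and only probe sets with 1 symbol are named.

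The 12 arrays entered 1 limma 3.58.1 model (R 4.3.3; lmFit, contrasts.fit and eBayes) that has a coefficient for each group, with 8 residual degrees of freedom, or 7 without wild-type LSK array 2. All p-values are two-sided, and Benjamini-Hochberg adjustment covered 45037 probe sets. Errors are standard errors of the fit, with 3 arrays a group, and the number of arrays limits precision. A background limit on each array, between 5.14 and 13, was the highest value among 27 bacterial control probe sets. Where the dim group was not above it on any of 3 arrays, a fold is a lower bound, and no fold is given where the bound is under 1.

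The comparison and the gene lists were chosen with earlier results of these data known, so counts over lists are descriptions with no test of the list. Named are Foxo1, Foxo3 and Foxo4, and the called genes with the largest differences in each direction (10 in the immediate-early lists and 12 outside), above background on all arrays of at least 1 group. Named too are all called list members, the 2 members of lowest p in each ROS, FoxO target, cell type or cell cycle list with no call, and the 6 largest differences in each direction called only without array 2. Other genes named for their role, or as list members called without array 2, were chosen after their values were seen. Alternatives were other offsets, median scaling, a 40th percentile filter, 1 probe set per gene, a trended robust fit, array weights and leaving out each array.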

Additional observations from a re-analysis of the deposited data

Results flagged for a closer look

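For 49 named genes the effect of FoxO deficiency differed between myeloid progenitors and LSK cells by the direct test of that difference (limma, adjusted p between 3.83e-04 and 0.0492). Values are log2 differences, myeloid progenitors minus LSK cells. Of the 49, 45 were lower and 4 higher.

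Among AP-1 genes the difference was -8.30 for Fosb, -6.40 for Atf3, -5.08 for Jun, -4.68 for Fos and -2.45 for Jund. Among the Egr and Nr4a factors it was -6.62 for Nr4a3, -6.35 for Nr4a1, -5.52 for Egr3, -4.05 for Egr2, -3.87 for Egr1 and -2.44 for Nr4a2. Early chemokines and cytokines had -7.87 for Cxcl2, -6.95 for Ccl3, -6.39 for Ptgs2, -5.68 for Ccl4, -4.70 for Cxcl10, -3.77 for Cd83 and -2.99 for Cxcl1. Feedback genes had -4.91 for Tnfaip3, -4.61 for Rgs1, -4.55 for Nfkbiz, -4.14 for Zfp36, -4.13 for Socs3, -3.98 for Ier3, -3.80 for Btg2, -3.23 for Dusp1, -2.21 for Ier5, -2.18 for Errfi1, -1.98 for Cd69 and -1.97 for Nfkbia. The 2 other early factors had -3.79 for Bhlhe40 and -3.13 for Klf6.

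Outside those lists the difference was -4.14 for Phlda1, -4.04 for Gem, -3.96 for both Ddx4 and Pmaip1, -3.92 for Rrad, -3.86 for Xcl1, -3.47 for Rasgef1b, -3.33 for Sqstm1, -3.26 for Cd14, -3.06 for Lmna, -3.0 for Sik1, -2.68 for Trim72 and -2.41 for Hspa1b. It was higher for 4933439C10Rik at 4.55, Rab23 at 3.77, Igkv8-30 at 3.69 and Tpd52l1 at 3.06. Where a group was not above background, as for Fosb or Xcl1, these fitted values depend on the offset and are no bounds. Cxcl2, Cd83, Socs3, Egr2, Ddx4 and Trim72 were each above background on 1 FoxO-deficient myeloid progenitor array. Their values rest in part on readings at background.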

How the results depend on the processing

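The 49 called differences of named genes kept their sign under all 19 alternatives. Of the 49, 28 were called under every alternative and 32 whichever 1 array was left out. The other 17 lost the call without at least 1 array, with adjusted p up to 0.139 without an array: Ccl4, Cd69, Cd83, Cxcl1, Cxcl10, Egr3, Errfi1, Gem, Ier3, Nfkbia, Pmaip1, Rrad, Sik1, Socs3, Tpd52l1, Trim72 and 4933439C10Rik. Under other settings alone, Jund and Hspa1b lost it with median scaling (adjusted p = 0.142 and 0.099), Xcl1 with a trended robust fit (0.12) and Igkv8-30 with offsets of 16 and 32 (up to 0.221). The difference of Klhl42, -0.22, reversed to 0.79 and 0.90 with offsets of 16 and 32, 1.82 with array weights and 2.24 without wild-type LSK array 2 (-1.51 to 2.24 without 1 array). Called probe sets in the difference, 121, became 375 and 526 with offsets of 16 and 32, 187 with a 40th percentile filter, 293 with a trended robust fit and 331 with array weights, and 60 to 303 when each array was left out, 303 without array 2. In the same order, the 282 of myeloid progenitors became 810, 1035, 465, 589 and 972 (126 to 1055, 1055 without array 2), and the 18 of LSK cells 189, 322, 47, 82 and 50, and 37 with 1 probe set per gene (0 to 36, 0 without FoxO-deficient LSK array 4). The 28 genes outside the immediate-early lists became 129, 200, 49, 94 and 99, and 78 with 1 probe set per gene (16 to 92, 92 without array 2). The 32 immediate-early genes ranged from 26 with median scaling to 46 with an offset of 16 (22 to 40 without 1 array). Their median difference of -2.21 was -1.41 and -1.15 with offsets of 16 and 32 (-2.40 to -2.10 without 1 array). Of called probe sets 85.1% were lower, against 69.9% and 63.1% with those offsets, 66.1% with 1 probe set per gene, 74% with array weights and 75.2% without array 2. The 303 calls without array 2 became 1105, 1820, 681, 472 (1 probe set per gene) and 1823 (trended robust fit), alternatives chosen after seeing the data. The cause of these shifts was not tested. No paired analysis was possible because the array numbers, 1 to 12, are not shared between groups. Signal over background limits genes such as Fosb and Rab23, whose dim group has only a bound.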

Other observations

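For 16 genes the difference was called only at a probe set dimmer than the gene's brightest one, and the genes named here were chosen after their values were seen. Btg1, an antiproliferative relative of Btg2, averaged 28.8 in FoxO-deficient and 454 in wild-type myeloid progenitors at such a probe set, and 670 in FoxO-deficient and 549 in wild-type LSK cells. Its difference was -4.26 ± 0.49 there (limma, adjusted p = 0.00876) and -0.55 at the brightest probe set (adjusted p = 0.679). Nfe2l2, which encodes the antioxidant factor Nrf2, had -4.63 ± 0.55 at a dimmer probe set (limma, adjusted p = 0.0098) and -0.03 at its brightest (adjusted p = 0.99). Dnajb1 and Dnajb4, co-chaperones of Hsp70, had -2.26 and -2.81 at dimmer probe sets and -0.86 and -1.30 at the brightest. The long noncoding RNA Malat1 had -1.95 and -0.14, the splicing factor gene Rbm39 had -1.76 and -2.03 at 2 dimmer probe sets and -0.25 at the brightest, and Birc3, an inhibitor of apoptosis, had -2.92 and -0.81. Of the 49 named genes, 22 had 43 other probe sets, and 5 of these had the opposite sign, 2 of them above background.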
